A study of Homo sapiens with 6 samples.

Results

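The genes described here make, lengthen, desaturate and carry fatty acids and build ceramide and the lipid barrier of skin. They are 41 named genes, chosen by function but with earlier results of these data known. They were matched by symbol to the Ensembl identifiers of the deposited table, in which all 41 of the 41 were found among 20014 genes. RNA was sequenced from HaCaT cells, an established line of spontaneously immortalized human keratinocytes. Of 6 libraries, 3 came from cells labelled as STUB1 knockout and 3 from control cells labelled WT. STUB1, also called CHIP, is a ubiquitin ligase that works with heat shock chaperones, and the series title names it as a regulator of epithelial function. Per the labels, both groups received a lentiviral CRISPR vector, with a guide against STUB1 in the knockout cells and a control guide in the control cells. Sorted cells were grown into colonies, the colonies were screened by immunoblot for STUB1, and neither group had a further treatment. Whether each library had its own colony or culture is not stated in the labels. The p-values therefore reflect library-to-library spread alone, and that spread may be technical.

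Fatty acid synthesis starts from citrate, which ACLY cleaves to acetyl-CoA, ACACA carboxylates to malonyl-CoA and FASN builds into palmitate. Desaturases then place double bonds, and the elongation cycle of the endoplasmic reticulum adds carbons in repeated steps, with an ELOVL enzyme setting the substrate and 3 shared enzymes completing each round. In the epidermis, very long acyl chains are joined to sphingoid bases by ceramide synthases, loaded into lamellar granules by the transporter ABCA12 and processed by the lipoxygenases ALOX12B and ALOXE3 into the water barrier of the cornified layer. This last stage belongs to differentiated keratinocytes.

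Promoter windows are shown for the 2 elongases that fell and for the 3 desaturases of one gene cluster that rose, since these are the sets whose members lie on one chromosome and moved the same way. Each window is the RefSeq sequence (GRCh38.p14) from 250 bases before to 50 bases after an annotated start, written 5′ to 3′ on the strand of the gene. Capitals mark matches, on either strand, to CCAAT (the NF-Y box), GGGCGG (the GC box), CACGTG (an E-box), TCACNCCAC (a sterol regulatory element core) or the kappa-B motif; no 2 matches overlapped in these 5 windows.
ELOVL4: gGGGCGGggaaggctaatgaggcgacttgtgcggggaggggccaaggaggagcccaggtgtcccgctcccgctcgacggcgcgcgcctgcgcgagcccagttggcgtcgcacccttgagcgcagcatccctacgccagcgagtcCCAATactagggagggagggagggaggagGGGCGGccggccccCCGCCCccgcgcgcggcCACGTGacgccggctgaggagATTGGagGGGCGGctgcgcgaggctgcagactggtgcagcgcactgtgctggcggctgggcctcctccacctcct
ELOVL5: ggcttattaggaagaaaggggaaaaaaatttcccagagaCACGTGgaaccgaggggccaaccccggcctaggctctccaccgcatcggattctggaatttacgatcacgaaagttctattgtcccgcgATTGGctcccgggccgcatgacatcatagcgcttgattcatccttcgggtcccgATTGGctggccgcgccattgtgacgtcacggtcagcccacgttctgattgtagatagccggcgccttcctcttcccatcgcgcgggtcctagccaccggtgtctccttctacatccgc
FADS1: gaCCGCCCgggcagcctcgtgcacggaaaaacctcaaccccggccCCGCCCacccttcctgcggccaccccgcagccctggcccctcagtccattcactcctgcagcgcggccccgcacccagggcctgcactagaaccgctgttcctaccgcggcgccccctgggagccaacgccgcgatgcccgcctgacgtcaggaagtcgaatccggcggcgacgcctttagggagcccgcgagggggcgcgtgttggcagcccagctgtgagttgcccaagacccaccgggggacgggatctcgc
FADS2: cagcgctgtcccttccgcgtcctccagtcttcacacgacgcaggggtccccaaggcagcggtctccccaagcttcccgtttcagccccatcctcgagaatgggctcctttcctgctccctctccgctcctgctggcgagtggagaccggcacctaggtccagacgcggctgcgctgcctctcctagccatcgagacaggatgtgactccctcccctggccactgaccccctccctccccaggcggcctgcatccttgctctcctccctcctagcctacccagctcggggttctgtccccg
FADS3: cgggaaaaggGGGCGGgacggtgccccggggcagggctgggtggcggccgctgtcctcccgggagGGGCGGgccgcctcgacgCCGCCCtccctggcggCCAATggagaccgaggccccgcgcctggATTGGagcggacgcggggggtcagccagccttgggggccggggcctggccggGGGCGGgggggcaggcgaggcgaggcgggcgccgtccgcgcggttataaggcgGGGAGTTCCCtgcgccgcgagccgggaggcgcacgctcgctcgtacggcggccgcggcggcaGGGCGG
The windows lie at chr6:79947504-79947803 (minus strand), chr6:53348901-53349200 (minus), chr11:61816954-61817253 (minus), chr11:61815953-61816252 (plus) and chr11:61891496-61891795 (minus). Both elongase windows held CACGTG, a match present in 7.26% of 35116 RefSeq windows. Among the 34 members with a window, CACGTG occurred in the first listed window of 2 of 5 genes that fell, 0 of 4 that rose and 0 of 20 that did not pass. GGGCGG was found in 45.0% of all windows, and in 4 of the 5 genes that fell, 3 of the 4 that rose and 18 of the 20 that did not pass. CCAAT was found in 34.6% of all windows, and in 3 of the 5, 2 of the 4 and 8 of the 20. The kappa-B motif was found in 5.91% of all windows. It occurred in the first listed window of 1 of the 4 genes that rose (FADS3), 0 of the 5 that fell and 2 of the 20 that did not pass. Of 5 untested members with a window, 2 held it. The first FADS2 window held none of the motifs searched. TCACNCCAC was in 1.13% of all windows and in none of the 34 first listed member windows. The members had 51 windows in all, and the shares over RefSeq count every window of a gene. Among the further member windows, window 2 of FADS2 held 1 match to CCAAT and 1 to GGGCGG, and window 3 of ACSL1 held TCACNCCAC. Window 2 of ABCA12 and window 2 of ALOXE3, genes that did not pass, held CACGTG. Window 2 of DEGS1, which also did not pass, held the kappa-B motif. A match is a description of letters and no evidence of binding.

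Expression values were FPKM, that is fragments scaled to transcript length and library total, so that levels may be compared between genes. STUB1 itself was lower in every knockout library, at 21.6, 24.7 and 23.2 FPKM, than in any control library, at 37.8, 41.9 and 52.7 FPKM (log2 difference -0.89, SE 0.116; limma with Benjamini-Hochberg adjusted p = 0.00125). A two-sided exact permutation test of the STUB1 values returned p = 0.1, and groups of 3 cannot give a smaller one. Of 10 keratinocyte markers, 9 passed the filter described next, while KRT14, a defining basal keratin, stood at 0.162 to 0.328 FPKM in all 6 libraries. The 10 markers summed to 1069 to 1163 FPKM in the knockout and 894 to 959 FPKM in the control, with KRT5 (log2 0.82) and COL17A1 (log2 0.72) higher by the test below. The other 7 tested markers did not pass, and of all 9 differences 6 were above 0 and 3 below. KRT15 was lower in all 3 knockout libraries than in any control library (log2 -0.24, limma adjusted p = 0.0651). The part of these marker differences in the lipid gene results was not tested. The 9 adipocyte and sebocyte markers summed to at most 0.264 FPKM, 8 of them at 0 in every library, and the 7 fibroblast markers to at most 0.562 FPKM. The leukocyte markers summed to 0.159 to 0.191 FPKM in the knockout and 0.430 to 0.640 FPKM in the control, mostly CD14. Of 6 melanocyte markers TYR was at 0 throughout, while PMEL (4.9 to 5.8 FPKM) and MITF (1.5 to 1.8 FPKM) passed the filter and did not differ by the test. The sum was 6.46 to 7.65 FPKM in the knockout and 6.74 to 7.40 FPKM in the control. Control 3 stood apart, correlating with controls 1 and 2 at r of 0.988 and 0.986 across genes, against 0.996 to 0.999 for each other pair within a group. It lay below both other controls for 18 of 36 tested lipid genes and above both for 12. In RNA from bulk cultures, fewer cells of a kind and less RNA per cell cannot be told apart.

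Of the 41 lipid genes, 36 reached a mean of 1 FPKM over the 6 libraries and were tested as log2(FPKM + 1). In the knockout 5 rose and 6 fell, and 25 did not pass (limma, adjusted p threshold of 0.05 over all 11262 tested genes). Over all tested genes 22.9% were called (9.58% higher and 13.3% lower), against 30.6% of the lipid genes, and the median difference was -0.03 for the lipid genes and -0.01 for all genes. Because the lipid genes were chosen with earlier results of these data known, these shares cannot serve as a test of the set. ELOVL4 and FABP5 fell most, and they were the only 2 of the 11 whose call held whichever library was left out. The groups did not overlap for 17 of the 36, against 45.6% of all tested genes. Summed over the 41 genes, the level was 937.6 to 969.0 FPKM in the knockout and 1022 to 1113 FPKM in the control, and SCD alone made up 23.1% to 27.5% of it. One gene, ELOVL4, passed the filter only through its control libraries, so its inclusion depended on the group where it was high.

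**Figure D1:**
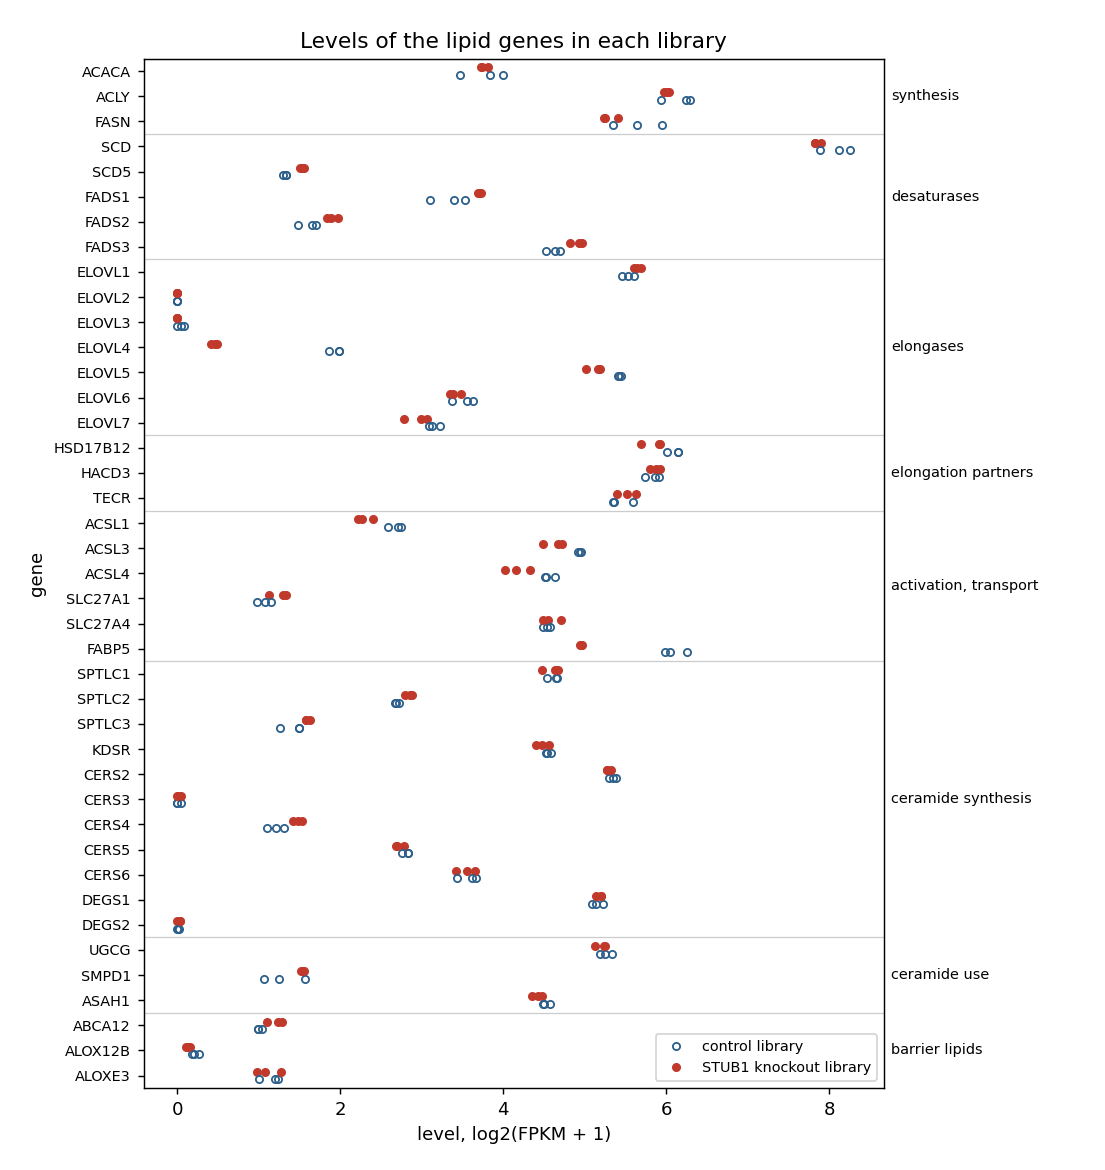
Level of each of the 41 lipid genes in each library, as log2(FPKM + 1) on a linear axis, with filled circles for the 3 knockout and open circles for the 3 control libraries, grouped by role. The 2 groups are farthest apart for ELOVL4 and FABP5, and ELOVL2, ELOVL3, CERS3 and DEGS2 sit at or near 0.

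The elongases ranged from a major transcript to none. ELOVL1, which lengthens saturated chains for ceramides, had the highest level, at 47.6, 50.8 and 49.0 FPKM in the knockout and 45.3, 47.6 and 43.0 FPKM in the control. These groups overlapped by a small margin and the difference did not pass (log2 0.12, 95% interval -0.04 to 0.28). ELOVL2, an elongase of polyunsaturated chains, was at 0 in every library, and ELOVL3, known from sebaceous and brown fat cells, was at 0 in all knockout libraries and at most 0.062 FPKM in the control. Neither was tested.

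ELOVL4 makes the ultra-long acyl chains of barrier acylceramides. It measured 0.406, 0.337 and 0.377 FPKM in the knockout and 2.95, 2.64 and 2.95 FPKM in the control. All 3 knockout libraries lay far below the lowest control library. The mean was 0.373 ± 0.0346 FPKM (SD, n = 3) against 2.85 ± 0.182 FPKM (SD, n = 3), 13.1% of control or 7.62-fold lower. On the log2(FPKM + 1) scale the difference was -1.48 (SE 0.0658; limma, Benjamini-Hochberg adjusted p = 5.15e-06). That scale understates changes of low genes, and with a pseudocount of 0.1 the difference was -2.64. As a share of the summed elongase FPKM, ELOVL4 made up 2.39% to 2.82% in the control libraries and 0.345% to 0.405% in the knockout libraries.

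ELOVL5, which lengthens polyunsaturated and some monounsaturated chains, fell much less. It measured 34.9, 31.3 and 35.6 FPKM in the knockout and 42.7, 41.4 and 41.8 FPKM in the control, 80.8% of control. The groups did not overlap (log2 difference -0.30, SE 0.0733; limma, Benjamini-Hochberg adjusted p = 0.0192). A fit in which each library was adjusted for the GC content and exonic length of the genes put the difference at -0.16, which did not pass (adjusted p = 0.051; with library number as a block as well, 0.101). ELOVL6, which extends palmitate to stearate, and ELOVL7, which extends longer saturated chains, stood at 91.3% and 86.0% of control and did not pass (95% intervals of the log2 difference -0.31 to 0.08 and -0.40 to 0.01). ELOVL7 was below control in all 3 knockout libraries, at 5.90 to 7.36 against 7.48 to 8.35 FPKM, but with the GC and length correction its log2 difference was 0.022. Without control 3, ELOVL6 (log2 -0.19, limma adjusted p = 0.0383) and ELOVL7 (log2 -0.23, limma adjusted p = 0.0411) passed, as they did with array weights.

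The 3 shared enzymes of the elongation cycle did not pass. HSD17B12, the ketoacyl reductase, was at 50.8 to 60.0 FPKM in the knockout and 63.3 to 70.0 FPKM in the control, without overlap (log2 difference -0.25, limma adjusted p = 0.0612, and 0.0334 with the replicate block). After the GC and length correction its difference was -0.13 and did not pass (limma adjusted p = 0.124, and 0.125 with the block added). HACD3, a dehydratase, and TECR, the final reductase, stood at 102% and 106% of control (95% intervals -0.14 to 0.20 and -0.13 to 0.29).

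The desaturases split. SCD, the delta-9 desaturase that makes oleate, was the most abundant gene of the set, at 238.4, 225.6 and 226.0 FPKM in the knockout and 278.5, 305.8 and 235.7 FPKM in the control. All knockout libraries but the first lay below all controls, and the difference did not pass (log2 -0.24, limma adjusted p = 0.116). Without control 3 the difference was -0.34 and passed (limma adjusted p = 0.000205). SCD5, its low-level relative, measured 1.94, 1.89 and 1.84 FPKM against 1.52, 1.51 and 1.47 FPKM, 126% of control. It rose by a small amount (log2 0.21, limma adjusted p = 0.0377, and 0.0532 with the replicate block), and by 0.32 with a pseudocount of 0.1.

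FADS1, FADS2 and FADS3 are neighbours on chromosome 11. FADS1 and FADS2 are the delta-5 and delta-6 desaturases of polyunsaturated fatty acids, and FADS3 is a relative that acts on sphingoid bases. FADS1 measured 12.2, 12.1 and 11.9 FPKM in the knockout and 9.55, 10.5 and 7.60 FPKM in the control. FADS2 measured 2.58, 2.94 and 2.71 FPKM against 2.16, 2.26 and 1.80 FPKM. FADS3 measured 27.3, 30.4 and 29.5 FPKM against 22.0, 23.8 and 24.9 FPKM. In all 3 genes every knockout library exceeded every control library, and the means stood at 131%, 132% and 123% of control. The log2 differences were 0.36 (SE 0.106), 0.29 (SE 0.0806) and 0.29 (SE 0.077), with limma adjusted p of 0.0365, 0.0333 and 0.0264. Corrected for GC content and length, FADS1 was at 0.25 and passed, while FADS2 (0.056, adjusted p = 0.437) and FADS3 (0.15, adjusted p = 0.167) did not, nor with the replicate block added (0.53 and 0.108). FADS1 and FADS2 share 490 exonic bases on opposite strands, and without a stated strand setting reads of that stretch cannot be assigned to either. Among the other members, CERS6 shares 2999 exonic bases with an antisense transcript, CERS2 948 with SETDB1 and HSD17B12 948 with an antisense gene.

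None of the 3 enzymes of fatty acid synthesis passed. ACACA stood at 98.3%, ACLY at 89.5% and FASN at 77.2% of control (95% intervals of the log2 difference -0.28 to 0.27, -0.37 to 0.07 and -0.65 to -0.04). Control 3 was the lowest control for all 3, with FASN at 39.7 FPKM there against 48.8 and 60.7 FPKM in controls 1 and 2 and 36.8, 41.5 and 36.9 FPKM in the knockout. The FASN difference was -0.35 with adjusted p = 0.095, and it passed with the replicate block (0.0246), after the GC and length correction (-0.62, adjusted p = 0.00328) and without control 3 (-0.49, adjusted p = 0.000174). ACLY also passed without control 3 (log2 -0.26, limma adjusted p = 0.00134). Leaving out any other single library gave no call for SCD, ACLY or FASN.

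**Figure D2:**
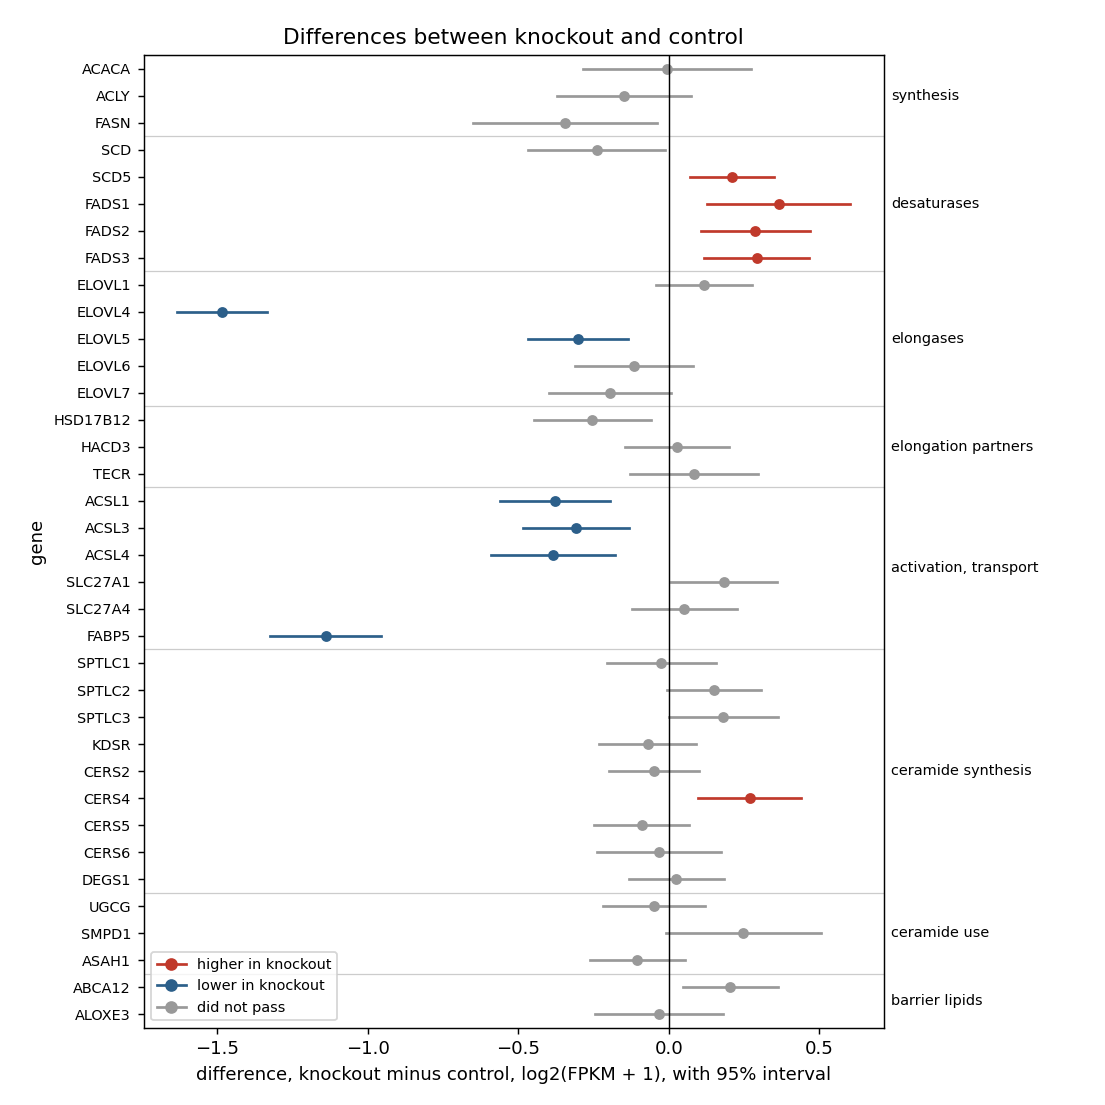
Difference between knockout and control for the 36 tested lipid genes, with the 95% interval of the limma fit, red where the gene rose, blue where it fell and grey where it did not pass. ELOVL4 at -1.48 and FABP5 at -1.14 stand apart, and the other 9 called genes lie between -0.39 and 0.36.

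Of the 6 genes of fatty acid activation and transport 4 fell and none rose. Over all tested genes 13.3% were lower and 9.58% higher. FABP5, the epidermal fatty acid-binding protein, carries fatty acids in the cytosol and to the nucleus. It measured 30.4, 29.9 and 30.1 FPKM in the knockout and 65.4, 62.6 and 75.2 FPKM in the control. The knockout libraries were nearly equal to each other and below any control library by a wide margin. The mean stood at 44.4% of control, 30.1 ± 0.239 against 67.7 ± 6.57 FPKM (SD, n = 3 each), 2.25-fold lower. The log2 difference was -1.14 (SE 0.0817; limma, Benjamini-Hochberg adjusted p = 7.85e-05). FABP5 has processed pseudogenes, with which reads may be shared.

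The long-chain acyl-CoA synthetases, which activate fatty acids, fell together. ACSL1, known for its role in oxidation and storage, measured 4.31, 3.66 and 3.83 FPKM against 5.69, 5.55 and 4.99 FPKM. ACSL3, of lipid droplets and the endoplasmic reticulum, measured 25.4, 21.5 and 24.4 FPKM against 29.7, 29.2 and 30.1 FPKM. ACSL4, which prefers arachidonate, measured 19.1, 15.2 and 16.9 FPKM against 23.9, 21.8 and 22.0 FPKM. In each of the 3, all knockout libraries lay below all control libraries and knockout 2 was lowest, and the means stood at 72.7%, 80.2% and 75.8% of control. The log2 differences were -0.38, -0.31 and -0.39, with limma adjusted p of 0.0118, 0.0224 and 0.0173. After the GC and length correction they were -0.35, -0.18 and -0.23, and ACSL3 no longer passed once the replicate block was added (adjusted p = 0.0591). The fatty acid transport proteins SLC27A1 and SLC27A4 stood at 126% and 104% of control and did not pass (95% intervals 0.01 to 0.36 and -0.12 to 0.23).

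Of 11 genes of ceramide synthesis 9 were tested, 1 rose and 8 did not pass, with a median difference of -0.03. The share called was 11.1%, against 22.9% of all tested genes. With the GC and length correction the call of CERS4 was lost and those of SPTLC3 and DEGS1 were added, both higher. Their summed level was 139.9 to 146.7 FPKM in the knockout and 141.7 to 148.4 FPKM in the control, with overlapping groups. CERS4, a synthase for long-chain ceramides, rose from a low level, with 1.79, 1.89 and 1.67 FPKM against 1.14, 1.49 and 1.32 FPKM. Every knockout library was above every control library (136% of control, log2 difference 0.27, limma adjusted p = 0.0341). After the GC and length correction it was at 0.17 and did not pass (adjusted p = 0.0772, and 0.117 with the replicate block).

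The most abundant genes of that group were CERS2, the main synthase for very long chains, DEGS1, which desaturates dihydroceramide, and SPTLC1, a subunit of the first enzyme of the pathway. They stood at 96.5%, 102% and 98.3% of control (95% intervals -0.20 to 0.10, -0.13 to 0.18 and -0.20 to 0.15). DEGS1 went from a log2 difference of 0.025 to 0.18 with the GC and length correction and then passed (adjusted p = 0.0196; 0.0496 once the block was included). The catalytic subunits SPTLC2 and SPTLC3 were higher in all 3 knockout libraries than in any control library, at 113% and 121% of control, but did not pass (adjusted p = 0.145 and 0.131). SPTLC3 passed with the GC and length correction (0.25, adjusted p = 0.0281; 0.0254 once the block was included). KDSR, the next enzyme of the pathway, CERS5 and CERS6 had differences of -0.07, -0.09 and -0.03 and did not pass. CERS3, the synthase that uses the products of ELOVL4 in epidermis, was at most 0.03 FPKM in any library, and DEGS2, which makes phytoceramide, at most 0.022 FPKM. Neither was tested.

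The genes of ceramide use and breakdown, UGCG (glucosylceramide synthase), SMPD1 (acid sphingomyelinase) and ASAH1 (acid ceramidase), did not pass, at 96.5%, 129% and 92.6% of control. Control 3 was the outlying library for SMPD1, at 1.97 FPKM against 1.37 and 1.10 FPKM in the other controls and 1.87 to 1.93 FPKM in the knockout. Without control 3 its difference went from 0.25 to 0.38 and passed (limma adjusted p = 0.000708).

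The late barrier genes had low levels in both groups. ABCA12 measured 1.45, 1.14 and 1.35 FPKM in the knockout and 0.981, 1.05 and 0.979 FPKM in the control, above control in all 3 libraries (log2 difference 0.20, limma adjusted p = 0.0654). It passed after the GC and length correction (0.22, adjusted p = 0.0301, and 0.0449 with the replicate block) and without control 3 (0.19, adjusted p = 0.0488). ALOXE3 measured 0.976 to 1.42 FPKM against 0.999 to 1.35 FPKM, with overlapping groups. ALOX12B, at 0.075 to 0.118 FPKM against 0.137 to 0.198 FPKM, was below the filter, and a fit without a filter gave adjusted p = 0.0615.

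Several members lie on chromosome stretches where most genes moved one way, so each was set beside the other tested genes that start within 10 Mb of it (GRCh38). ELOVL4, on chromosome 6 at 79914812 to 79947580, had 52 such neighbours with a median difference of -0.46, of which 43 fell and 0 rose. None of the 52 had a value as low as ELOVL4. ELOVL5, on the same chromosome at 53267398 to 53349179, had 50 neighbours with a median of -0.06. Of these, 7 fell and 1 rose, and 6 had a lower value than ELOVL5. FABP5, on chromosome 8 at 81280363 to 81284777, had 41 neighbours with a median of -0.06, and none of these was as low. ACSL1 and ACSL3 were also below all their 24 and 71 neighbours, whose medians were -0.12 and 0.06. ACSL4, on chromosome X, fell among neighbours with a median of -0.28, and 15 of these 54 were lower still.

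On the side of rises, the FADS genes shared 222 neighbours with a median of 0.12, of which 38 rose and 5 fell. FADS1, FADS2 and FADS3 exceeded 200, 180 and 181 of them. CERS4 exceeded 272 of 333 neighbours with a median of 0.13, and SCD5 exceeded 55 of 57 with a median of -0.10. ACACA, ACLY and FASN lie on chromosome 17 among neighbours with medians of -0.23, -0.26 and -0.38, and each stood above that median. How far the stretch contributed to the value of any single gene was not tested.

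**Figure D3:**
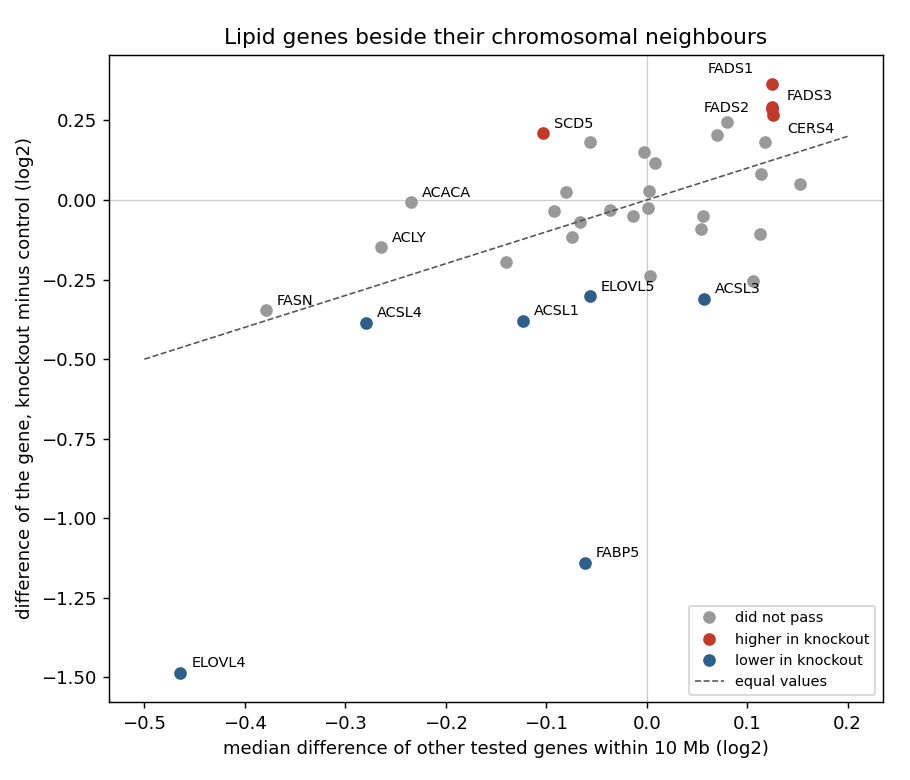
Difference of each of the 36 tested lipid genes (vertical) against the median difference of the other tested genes within 10 Mb (horizontal), both knockout minus control on the log2(FPKM + 1) scale; the dashed line marks equal values. ELOVL4 and FABP5 lie far below the line, and FASN and ACSL4 lie near it.

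Other genes of lipid metabolism, from lists drawn up by function but with earlier results of these data known, gave a mixed picture. Of 16 tested regulators of lipid synthesis, 1 rose and 3 fell, a share of 25.0% against 22.9% of all tested genes. SREBF1, the transcription factor of fatty acid synthesis, measured 21.5, 23.6 and 20.9 FPKM against 27.3, 31.5 and 28.8 FPKM (75.4% of control, log2 -0.39, limma adjusted p = 0.00974). Without knockout 3 that call was lost (adjusted p = 0.0595). PPARG, a nuclear receptor for fatty acids, fell to 66.8% of control (limma adjusted p = 0.00405), and its partner RXRA rose to 139% (limma adjusted p = 0.00448). Adjusted for GC content and length, the RXRA difference was 0.20 in place of 0.45 and still passed. SREBF2, which governs cholesterol synthesis, INSIG1, a sterol sensor of both pathways, and PPARD, a nuclear receptor to which FABP5 delivers ligands, had differences of 0.22, -0.20 and 0.20 and did not pass. SREBF2 passed without control 2 and with array weights.

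Of 10 other tested genes of fatty acid synthesis and elongation, 1 rose and 1 fell, a share also near that of all genes. ME1, the malic enzyme that supplies NADPH, fell to 53.1% of control, from 27.9, 26.1 and 30.5 FPKM to 16.2, 14.0 and 14.8 FPKM (log2 -0.87, limma adjusted p = 0.000336). It lies near ELOVL4 on chromosome 6, where 39 of its 46 neighbours fell. ACSS2, which makes acetyl-CoA from acetate, rose to 135% (limma adjusted p = 0.00345). ACACB, the mitochondrial form of acetyl-CoA carboxylase, was below the filter, at 0.839 to 0.927 FPKM against 0.372 to 0.780 FPKM.

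Among 8 other tested acyl-CoA synthetases and carriers, 1 rose and 4 fell (62.5%, against 22.9% of all tested genes). SLC27A2, a very-long-chain acyl-CoA synthetase, was at most 11.4 FPKM in the knockout libraries and at least 18.3 FPKM in the control libraries (58.8% of control, limma adjusted p = 0.000427), whereas SLC27A3 rose to 166% (limma adjusted p = 0.00122). CRABP2, which carries retinoic acid, fell to 57.3% (limma adjusted p = 0.00804; without knockout 2, 0.0628).

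Of 26 other tested sphingolipid genes, 3 rose and 4 fell (26.9%). This share, like that of the regulators, was near the one over all genes. SMPD2, a neutral sphingomyelinase, fell to 61.0% of control (limma adjusted p = 0.00133) on chromosome 6, where 41 of 49 neighbours fell. ALDH3A2, a fatty aldehyde dehydrogenase, ORMDL3, an inhibitor of serine palmitoyltransferase, and SPTSSA, a small subunit that activates that enzyme, fell to 80.7%, 79.4% and 79.4% (limma adjusted p = 0.016, 0.0164 and 0.0431). These 3 calls were lost without knockout 2, knockout 3 or control 1, and those of ORMDL3 and SPTSSA also without knockout 1 (adjusted p between 0.0534 and 0.252 over all alternatives that ended a call). Adjusted for GC content and length, SPTSSA was at -0.09 in place of -0.32 and did not pass; ORMDL3 lies on chromosome 17 among neighbours with a median of -0.26.

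Of 5 other tested barrier lipid genes, 2 fell (40.0%, against 22.9% of all tested genes called). STS (steroid sulfatase) and NIPAL4 stood at 69.7% and 79.3% of control (limma adjusted p = 0.0206 and 0.0306), and both calls were lost without any 1 of the knockout libraries, that of STS also without control 1 and that of NIPAL4 without control 2 (adjusted p between 0.0567 and 0.137). Of 12 tested genes of fatty acid oxidation, 3 rose and 1 fell (33.3%, against the same 22.9%). ACADS and HADHA, of mitochondrial oxidation, rose to 141% and 119% (limma adjusted p = 0.0264 and 0.032); both calls were lost without any 1 of the knockout libraries, control 1 or control 2, that of ACADS also with the GC and length correction and that of HADHA as TPM (adjusted p between 0.0559 and 0.134). The 6 lists had median differences between -0.16 and 0.03, with -0.01 for all genes.

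**Figure D4:**
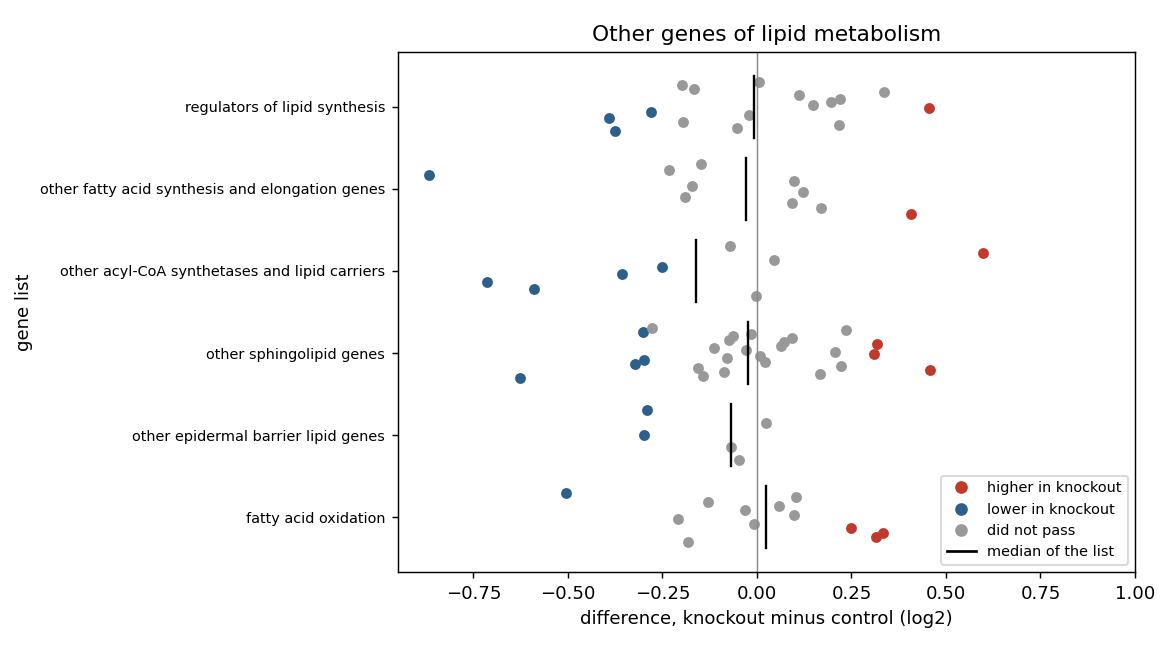
Difference between knockout and control for each tested gene of 6 further lists of lipid metabolism, one point a gene, red where it rose, blue where it fell and grey where it did not pass, with a bar at the median of each list. ME1 at -0.87 and SLC27A2 at -0.71 lie farthest to the left and SLC27A3 at 0.60 farthest to the right.

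The calls rested on few libraries. ELOVL4 and FABP5 passed under each alternative in which they were tested. Without knockout 2 or without knockout 3 they were the only lipid genes called, and the other 9 calls were lost (adjusted p from 0.0625 to 0.129 and from 0.058 to 0.119). Without control 1 only ACSL1 remained beside them (the 8 lost calls at 0.0634 to 0.121). Without knockout 1 the calls of CERS4, ELOVL5, FADS1, FADS2 and SCD5 were lost (0.0568 to 0.116), and without control 2 that of SCD5 (0.0681). Without control 3 all 11 remained and 8 were added, giving 7 higher and 12 lower, while 40.1% of all tested genes were then called. With each library rescaled to TPM the 5 rises kept their sign but none passed (0.0543 to 0.122), leaving 0 higher and 7 lower; over all genes the share of calls that were higher went from 41.8% to 29.1%. FADS1 had 0.24 without control 3 in place of 0.36, its lowest value under any alternative.

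**Figure D5:**
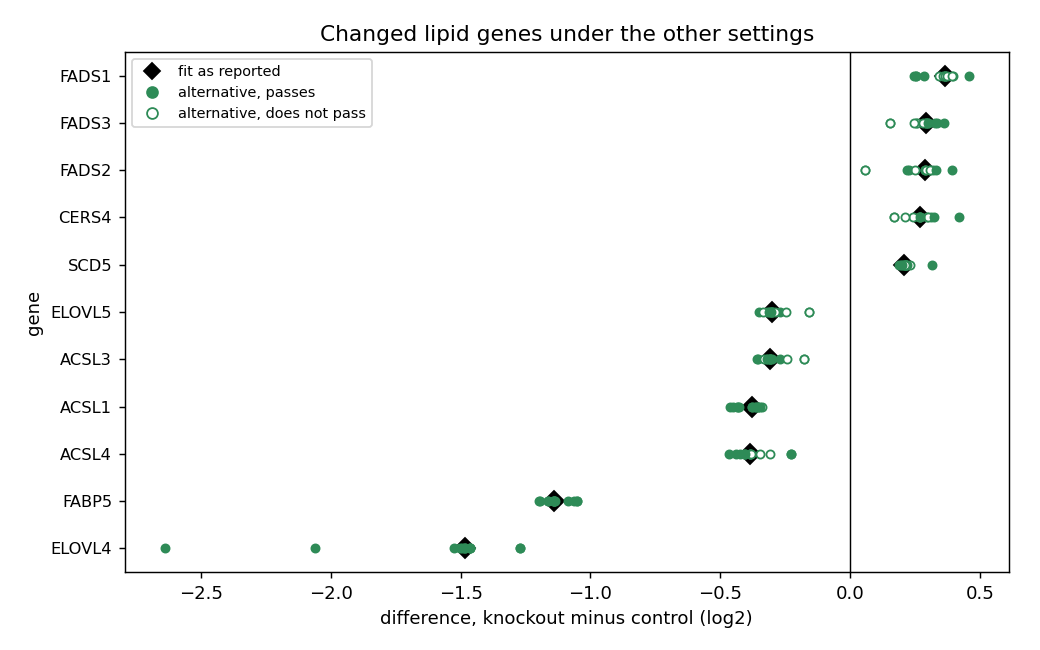
Difference between knockout and control for the 11 lipid genes that were called, with a black diamond for the reported fit and green circles for each alternative, filled where the gene passed. Every circle lies on the same side of 0 as its diamond; the 2 outlying ELOVL4 values, -2.64 and -2.06, come from a pseudocount of 0.1 and from TPM, which makes the pseudocount smaller relative to the values.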

How the data were processed

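The deposited table gave 1 FPKM value for each gene and library, given to 3 decimals by the authors. Per the submitters' processing notes the tools were Trimmomatic 0.36, HISAT2 2.0.5, featureCounts 1.6.3, edgeR 3.6.3 and Cufflinks on GRCh38.p13, with no step assigned to any tool; the annotation release and the strand setting were not given in the sources used here. FPKM is no count, so no count test was run. At the best-fitting step per read, only 65.4% to 70.2% of low values lay within 0.15 of whole reads, so reads were not recovered, the depth is unknown and no counting interval was computed. Genes with a mean of at least 1 FPKM were tested as log2(FPKM + 1) with limma 3.58.1 in R 4.3.3 (trend, genotype as the sole term, Benjamini-Hochberg over 11262 genes). The fit was tested on simulated data with independent noise for each gene and no outlying library such as control 3. That run checked the fit alone and cannot show how reliable the calls reported here are.

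Gene symbols were looked up by Ensembl identifier, 19991 in a name table and 23 in GENCODE 29, and coordinates, exonic length and GC content from GENCODE 29 (GRCh38). Named genes were all members, and of each further list up to 3 called genes with the smallest p plus SREBF1, SREBF2, INSIG1, ACACB, ACSS2, SPTSSA, ORMDL3 and PPARD. Some genes of the further lists are not reported here. Members and lists were chosen with earlier results of these data known. Replicate numbers are shared between groups, and the labels name no common day or batch. Deviations of same-numbered libraries from their group means correlated at 0.375, 0.150 and 0.188 across genes. Libraries of unlike number were not compared in this way, so these values cannot show whether the numbers pair the libraries. The reported values come from the fit without pairing, and a fit with the number as a block was an alternative. Tables were made in Python 3.11.15 (pandas 2.3.3) and plots with matplotlib 3.10.9.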

Additional observations from a re-analysis of the deposited data

How the results depend on the processing

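The number of lipid genes called went from 11 to 6 with a filter at a mean of 5 FPKM (26 lipid genes tested, ELOVL4 not among them), to 7 as TPM, to 22 with array weights, and to between 2 and 19 when 1 library was left out. With the filter at 5 FPKM, 0 calls were lost among the genes still tested, and the lower count came from called genes no longer tested. Over all genes 2579 calls (1079 higher, 1500 lower) became 6437 with array weights, whose estimate did not fully converge, and between 1030 and 4521 when 1 library was left out. A pseudocount of 0.1 kept all 11 calls, and no filter ended those of CERS4, FADS1 and FADS2. With the replicate block 12 lipid genes and 3051 of all genes were called: FASN and HSD17B12 were added, SCD5 was lost, and no other lipid gene call changed. As TPM 667 were higher and 1622 lower, and with the filter at 5 FPKM 706 were higher. STUB1 passed under every alternative. Among lipid genes that did not pass, small differences changed sign. After the GC and length correction, with or without the replicate block, ELOVL7 was at 0.022, SLC27A1 at -0.028, SLC27A4 at -0.057, SPTLC1 at 0.088, CERS6 at 0.035 and UGCG at 0.087. As TPM, HACD3 and DEGS1 were at -0.016 and -0.018. With array weights HACD3, SLC27A4 and ALOXE3 were at -0.027, -0.023 and 0.0023. With 1 library left out ACACA ranged from -0.16 to 0.11, HACD3 from -0.024 to 0.066, SLC27A4 from -0.011 to 0.097, SPTLC1 from -0.065 to 0.035, CERS6 from -0.099 to 0.029, DEGS1 from -0.0056 to 0.062 and ALOXE3 from -0.12 to 0.032. The cause of these changes was not tested. The alternatives for the further lists were added after the data were seen. With 3 libraries a group and no counts, the precision of genes near 1 FPKM is unknown.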
